A study of Rattus norvegicus with 9 samples.

Results

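Golgi glycosyltransferases are membrane enzymes of the secretory pathway that add sugars to proteins and lipids on their way to the cell surface. The genes described here were those whose symbol begins with B3galt, B4galt, B3gnt, Galnt, St3gal, St6gal, St8sia, Fut or Mgat, with each gene stood for by its brightest probeset. There were 75 such genes among the 18166 genes with a single symbol on the array, and 60 of them were among the 14014 genes bright enough to be tested. The rule reads gene names alone, but it was set with earlier results of these data known.

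Hepatic macrophages came from male Sprague-Dawley rats, and the operation under study was PPVL (partial portal vein ligation), in which a calibrated tie leaves the vessel open but tighter and so raises portal pressure. There were 3 groups of 3 separate rats, studied 3 days after PPVL, 10 days after PPVL, or after a sham operation in which no tie was placed. The labels give no day for the sham rats and no age, so time since surgery and ligation cannot be told apart. RNA was measured on 1-colour Affymetrix arrays, and all values below are log2 signals, on which a difference of 1 is a doubling.

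Sugars are added one at a time. Mgat enzymes set the number of antennae on N-linked glycans, and Galnt enzymes start mucin-type O-linked glycans on serine or threonine. B4galt, B3galt and B3gnt enzymes lengthen the chains, and some of them also act at early steps of glycolipid synthesis. The sialyltransferases (St3gal, St6gal, St8sia) and most fucosyltransferases (Fut) cap the chains. On leukocytes the sugar chains are read by selectins, siglecs and galectins, lectins that take part in trafficking and cell contact.

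The 9 arrays were alike, with medians between 5.21 and 5.26 and pairwise correlations between 0.987 and 0.993. The general macrophage genes Cd68, Csf1r, Lyz2, Msr1, Cd14 and Adgre1 had means of 8.55 to 12.8 over the arrays, and Aif1, C1qa, C1qb, C1qc and Mrc1, also on the macrophage list, had means of 5.42 to 7.87. Clec4f, Vsig4, Cd163, Timd4 and Marco, which are genes of resident liver macrophages, lay between 4.26 and 5.27, close to the 4.16 below which genes were not tested. Genes of T cells (15 tested, 7.41 to 11.2), natural killer cells (11 tested, 7.49 to 11.7) and B cells (10 tested, 5.60 to 9.99) were also measured well above that limit. Cd4, which is not limited to T cells, was the highest on the T cell list (11.2), and Cd28 came next (10.6). The labelled macrophages therefore carried RNA of lymphocyte genes in every group. Genes on the neutrophil list (9 tested, 6.34 to 11.4), the platelet list (7 tested, 5.01 to 7.60) and the hepatocyte list (9 tested, 4.29 to 7.91) also had means above that limit. In such mixed RNA, fewer cells of a type and less RNA per cell cannot be told apart.

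Of the 60 tested glycosyltransferase genes, B4galt6 alone changed after ligation by the test across all genes (limma, Benjamini-Hochberg adjusted p under 0.05). It rose at 3 days and at 10 days. This is 1 of 60 genes (1.67%) at 3 days, where 2.86% of all 14014 tested genes were called (2.15% higher, 0.714% lower). At 10 days it is again 1 of 60, where 0.735% of all genes were called (0.492% higher). Both comparisons use the same 3 sham arrays, so their values are given side by side and are not independent of each other. No member was called between 10 and 3 days, where 0.0714% of all genes were called by limma and 8 of the 60 (13.3%) had an unadjusted p under 0.05, against 11.3% of all genes.

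B4galt6 encodes a beta-1,4-galactosyltransferase that makes lactosylceramide, the lipid from which most glycolipids with longer sugar chains are built. Its log2 signal in the 3 sham rats was 6.82, 7.24 and 7.09. At 3 days it was 8.52, 8.63 and 8.23, and at 10 days 7.86, 7.85 and 8.13. All 6 arrays after ligation were above all 3 sham arrays, and the 3-day arrays were all above the 10-day arrays. The difference from sham at 3 days was 1.41 ± 0.14 (SE, n = 3 against 3), a 2.65-fold rise with a 95% interval of 2.15 to 3.28 and adjusted p = 0.00228. By p it ranked 7 among all tested genes, and by size of rise 13. At 10 days the difference was 0.90 ± 0.14, a 1.86-fold rise with adjusted p = 0.0449. The 10-day arrays differed from the 3-day arrays by -0.51 ± 0.14, which did not pass the test (adjusted p = 0.253). The 3-day call held whichever array was left out, with differences of 1.29 to 1.52, whereas the 10-day call held in 3 of 9 such fits and was lost without any 1 of the sham or 10-day arrays (adjusted p up to 0.143).

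**Figure D1:**
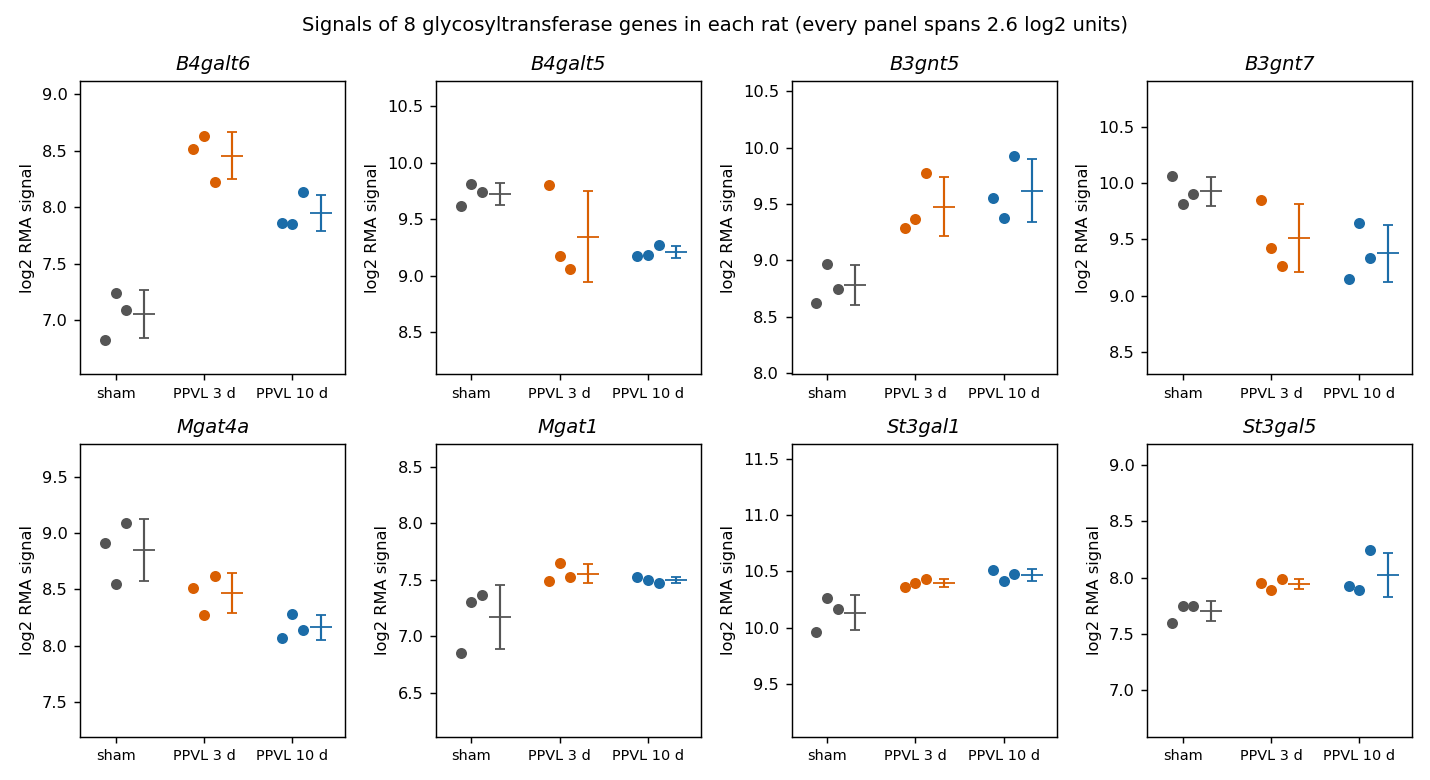
Log2 signal of selected glycosyltransferase genes on each array (y axis) in the sham, PPVL 3-day and PPVL 10-day groups (x axis), with points for single rats and crosses with bars for the group mean ± SD. B4galt6 lies at 6.82 to 7.24 in sham, 8.23 to 8.63 at 3 days and 7.85 to 8.13 at 10 days, and B4galt5 lies lower on most arrays after ligation.

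B4galt5 encodes the other lactosylceramide synthase of the family and was followed whatever its values. Its signal was 9.62, 9.82 and 9.74 in sham, 9.81, 9.17 and 9.05 at 3 days, and 9.17, 9.18 and 9.27 at 10 days. The 10-day arrays were all below the sham arrays, and at 3 days rat 1 lay within the sham range while the other rats lay below it. The differences from sham were -0.38 ± 0.16 at 3 days (adjusted p = 0.304) and -0.52 ± 0.16 at 10 days (adjusted p = 0.167), and neither passed. Over the 9 fits that left out 1 array, the 3-day difference was -0.61 to -0.24, and B4galt5 passed in 1 fit at each day. That was the fit without 3-day rat 1 (limma, adjusted p = 0.0113 at 3 days and 0.0367 at 10 days). In the other fits adjusted p was up to 0.587 at 3 days and 0.338 at 10 days. Between the days it differed by -0.14 (adjusted p = 0.780).

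The log2 ratio of B4galt6 to B4galt5 within an array differed from sham by 1.79 at 3 days and by 1.41 at 10 days. Every array after ligation had a higher ratio than every sham array. This already held for B4galt6 alone, so the ratio is not separate support. The exact 2-sided permutation test gave p = 0.1 for both, which is the smallest that 3 arrays against 3 can give. Between 10 and 3 days the ratio differed by -0.38 (exact permutation p = 0.2).

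Markers of other cell types moved along with these values, and their part in the result was not tested beyond the covariate fits given here. The T cell marker score (the mean over the 15 tested genes of the log2 value less the gene's own mean over the arrays) was 0.11 to 0.30 in sham, -0.20 to 0.08 at 3 days and -0.24 to -0.09 at 10 days. The natural killer cell score over 11 genes was 0.18 to 0.28 in sham, -0.33 to 0.21 at 3 days and -0.28 to -0.18 at 10 days. Of these genes, 2 T cell genes and 1 natural killer cell gene fell at 10 days by the test. The 10-day difference was below 0 for 14 of the 15 T cell genes and above 0 for 1, Cd4. The macrophage score over 16 genes was -0.31 to -0.24 in sham, 0.09 to 0.49 at 3 days and 0.02 to 0.09 at 10 days, with 4 genes rising at 3 days and 1 at 10 days. The B cell score over 10 genes was -0.34 to -0.28 in sham, -0.09 to 0.36 at 3 days and 0.08 to 0.36 at 10 days. The neutrophil score over 9 genes overlapped between the groups, at -1.05 to 0.20 in sham, -0.0014 to 0.70 at 3 days and -0.55 to 0.09 at 10 days, with 1 sham rat far below the other arrays. At 3 days 2 B cell genes and 2 neutrophil genes rose. The dendritic cell score over 6 genes was 0.13 to 0.21 in sham, -0.27 to -0.12 at 3 days and -0.04 to 0.06 at 10 days. It was below sham on every array after ligation, and 3 of the 6 genes fell at 3 days. The hepatocyte score over 9 genes was -0.27 to -0.05 in sham, -0.16 to 0.27 at 3 days and -0.01 to 0.14 at 10 days. The platelet score over 7 genes was -0.21 to 0.12 in sham, -0.17 to 0.68 at 3 days and -0.45 to -0.11 at 10 days. When the joint score of T and natural killer cells (the lymphocyte covariate below) was added to the fit, B4galt6 differed from sham by 1.26 at 3 days (adjusted p = 0.528) and 0.65 at 10 days (adjusted p = 1.00). Neither passed, but 0 of the 14014 tested genes were called at either day in that fit, so the lost calls are not particular to B4galt6. The T and natural killer cell scores do not overlap between sham and the 10-day arrays. The T cell score does not overlap between sham and the 3-day arrays either. With the hepatocyte score as the covariate instead, B4galt6 was called at 3 days but not at 10 days.

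**Figure D2:**
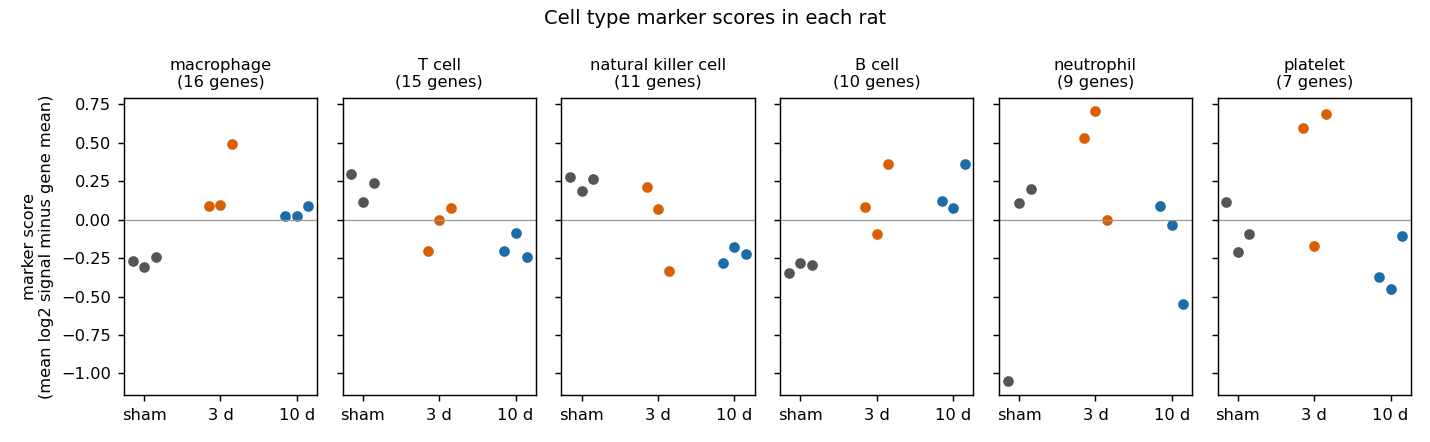
Cell type marker score of each array (y axis, mean log2 value relative to each gene's mean over the 9 arrays) by group and cell type, with 1 point per rat. The T cell score is 0.11 to 0.30 in sham and -0.24 to -0.09 at 10 days, and the macrophage score is -0.31 to -0.24 in sham and 0.02 to 0.09 at 10 days.

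Counted by overlap alone, 13 of the 60 genes (21.7%) had 3-day arrays all above or all below the sham arrays, a share near the 18.8% of all tested genes. They were 7 above and 6 below, where 10.1% of all genes lay above and 8.66% below. At 10 days 17 of 60 did so (28.3%, against 21.0% of all genes), with 7 above and 10 below, where 9.88% of all genes lay above and 11.1% below. Between the days 6 of 60 did (10.0%, against 14.6%), with 2 above and 4 below, where 6.90% of all genes lay above and 7.74% below. B3gnt5, B4galt6, Galnt1, Mgat1, St3gal1 and St3gal5 lay above sham without overlap at both days, and B3gnt6 and St3gal4 lay below it at both. Both days are set against the same sham arrays, and the share of all genes that did so at both days was not counted. Unadjusted p was under 0.05 for 16 of the 60 genes at 3 days (26.7%, against 15.5% of all genes) and 16 at 10 days (26.7%, against 16.2%). The median difference over the 60 genes was -0.0033 at 3 days and -0.02 at 10 days, against -0.014 and -0.0004 over all tested genes. Members went in both directions, so these medians say little about how far single genes moved. The median size of a difference, regardless of sign, was 0.108 at both days, against 0.0825 and 0.0878 over all genes. Differences of more than 0.5 were found for 2 members at 3 days (3.33%, against 3.57% of all genes) and for 5 at 10 days (8.33%, against 2.27%). No test was run on these shares.

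**Figure D3:**
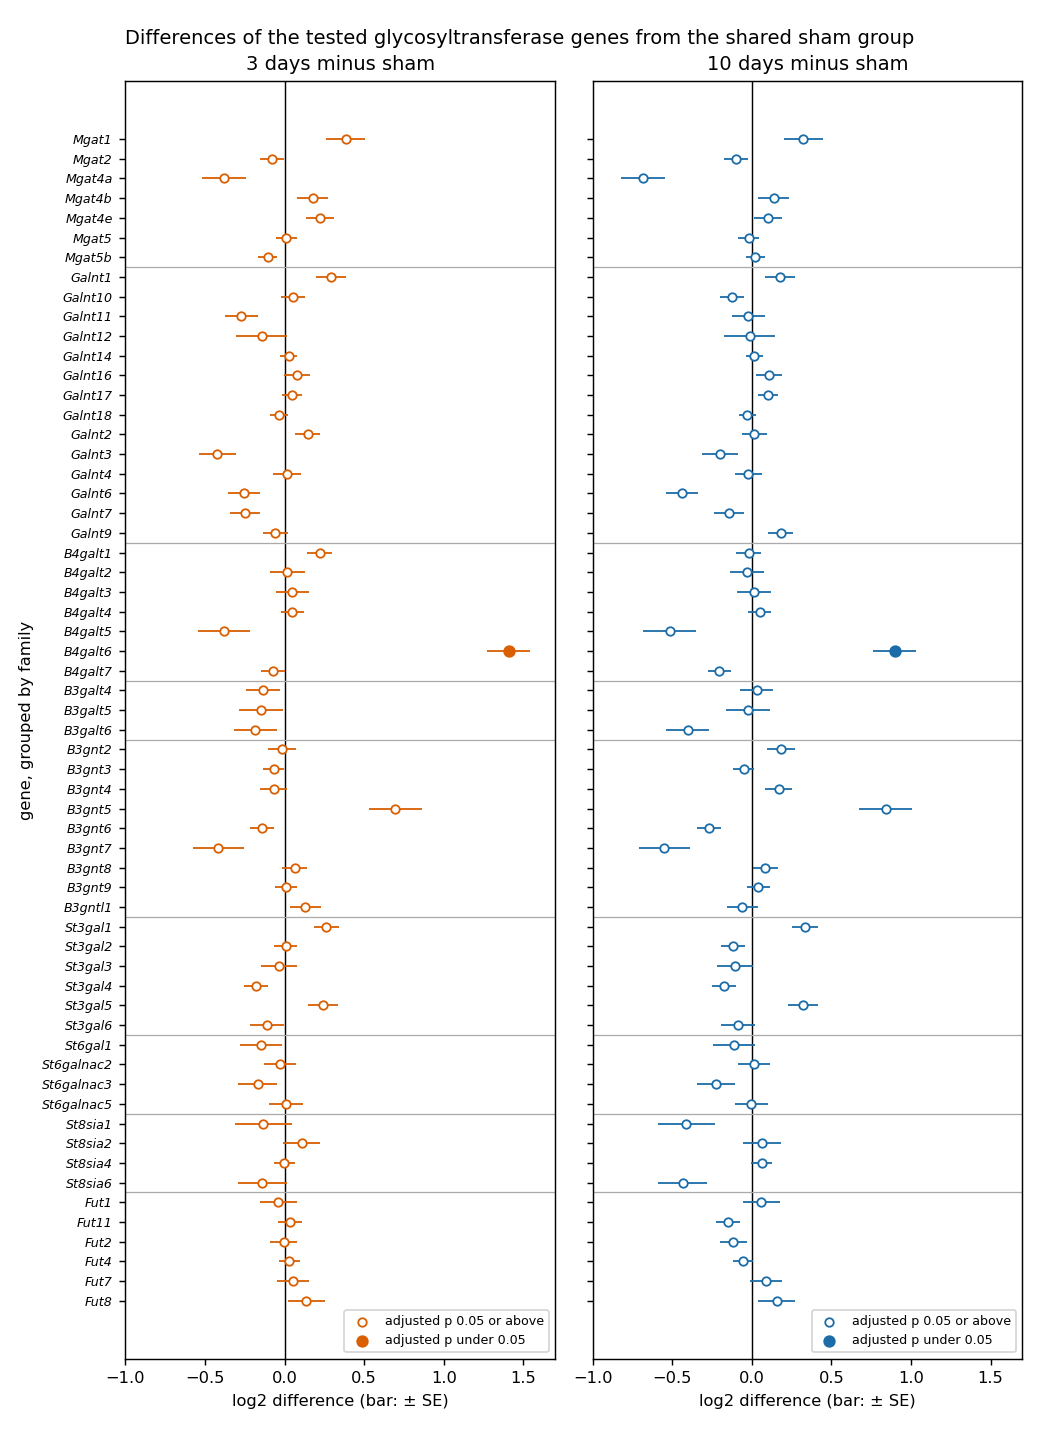
Difference in log2 signal from sham (x axis, with standard errors) of the tested glycosyltransferase genes (y axis) at 3 and 10 days after PPVL. B4galt6 stands at 1.41 and 0.90, and the other genes lie between -0.68 and 0.84.

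**Figure D4:**
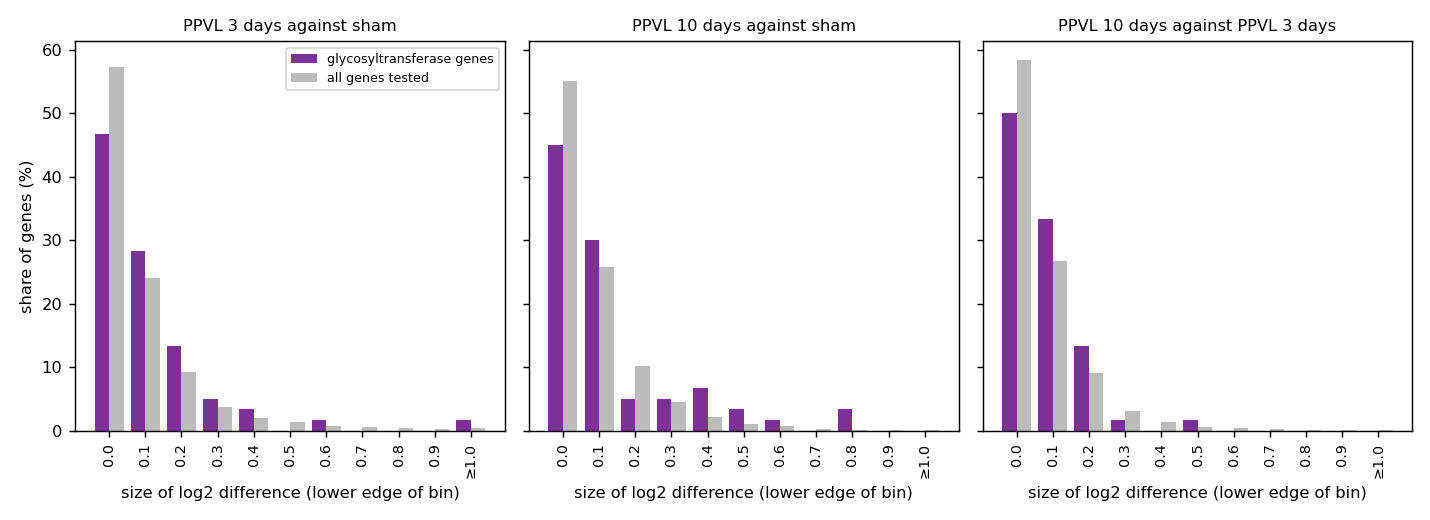
Share of genes (y axis, percent) by size of the difference in log2 signal regardless of sign (x axis) for the 60 glycosyltransferase genes and for all 14014 tested genes. The medians are 0.108 against 0.0825 at 3 days and 0.108 against 0.0878 at 10 days.

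B4galt6 had no entry in the RefSeq promoter table. The largest 10-day differences among the genes with an entry were those of B3gnt5, Mgat4a and B3gnt7. Their promoters, from 250 bases before to 50 bases after the annotated start, are shown because these genes differ in direction, with B3gnt5 above sham and the others below it. Entries were found for 63 of the 75 genes (RefSeq, assembly GRCr8). Capitals mark matches on either strand to a GC box (GGGCGG), a PU.1-type ETS core (GGAAGT) or an E-box (CACGTG). An AP-1 site (TGANTCA) and a TATA box (TATAAA) were also searched for and had no match in these windows. B3gnt5 is at chr11:94657535-94657834 on the minus strand, Mgat4a at chr9:47262664-47262963 on the minus strand and B3gnt7 at chr9:94403947-94404246 on the plus strand.
B3gnt5: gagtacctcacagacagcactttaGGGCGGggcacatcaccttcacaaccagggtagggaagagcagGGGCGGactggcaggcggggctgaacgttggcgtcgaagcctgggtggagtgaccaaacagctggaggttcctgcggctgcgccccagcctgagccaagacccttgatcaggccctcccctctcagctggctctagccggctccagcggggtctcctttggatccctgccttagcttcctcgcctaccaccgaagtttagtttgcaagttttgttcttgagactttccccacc
Mgat4a: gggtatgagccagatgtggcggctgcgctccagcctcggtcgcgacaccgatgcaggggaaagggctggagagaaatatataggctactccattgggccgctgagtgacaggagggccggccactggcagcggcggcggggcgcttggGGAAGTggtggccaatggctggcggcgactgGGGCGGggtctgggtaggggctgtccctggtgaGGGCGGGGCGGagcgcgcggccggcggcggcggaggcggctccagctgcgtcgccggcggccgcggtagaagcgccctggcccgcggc
B3gnt7: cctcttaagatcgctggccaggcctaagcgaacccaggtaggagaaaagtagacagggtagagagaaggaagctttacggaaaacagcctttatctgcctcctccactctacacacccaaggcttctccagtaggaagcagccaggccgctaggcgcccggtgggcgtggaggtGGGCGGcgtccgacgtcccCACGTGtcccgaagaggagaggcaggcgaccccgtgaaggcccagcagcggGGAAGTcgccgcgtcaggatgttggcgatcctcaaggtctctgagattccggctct

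The B3gnt5 window held 2 GC boxes, the Mgat4a window 3 GC boxes and 1 ETS core, and the B3gnt7 window 1 GC box, 1 ETS core and 1 E-box. No motif overlapped a different motif in them. The Mgat4a window was the richest in CpG, with 34 CpG pairs and a GC content of 73.3%, against 12 and 60.7% for B3gnt5 and 21 and 61.3% for B3gnt7. A GC box was found in 52.4% of the 63 glycosyltransferase promoters and 34.9% of all 27457 promoters in the table, an ETS core in 22.2% and 22.8%, and an E-box in 12.7% and 6.65%. An AP-1 site was found in 3.17% and 7.33%, and a TATA box in 7.94% and 14.3%. The median GC content was 60.7% against 52.3%, and GC-rich windows hold more GC boxes by their letters alone. The windows follow the annotated starts as listed, which were not checked here. That of B4galt5 held 1 CpG pair and no match to any of the 5 motifs, and whether its listed start is the one used in these cells was not tested. These matches describe the sequence and do not show that a factor binds there.

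Among the enzymes that branch N-linked glycans, 11 Mgat genes were on the array, 7 were tested and none was called at either day. Mgat1 encodes the transferase that starts hybrid and complex N-glycans. Its signal was 6.85, 7.31 and 7.36 in sham, 7.49, 7.65 and 7.53 at 3 days, and 7.52, 7.49 and 7.47 at 10 days. Sham rat 1 was the lowest of the 9 arrays, and the arrays after ligation lay above all sham arrays. The difference at 3 days was 0.38 ± 0.12 (adjusted p = 0.145), and without sham rat 1 it was 0.22. Mgat4a encodes an enzyme that adds a beta-1,4 branch to the same glycans. It measured 8.91, 8.55 and 9.09 in sham, 8.51, 8.27 and 8.62 at 3 days, and 8.07, 8.28 and 8.14 at 10 days. The 10-day arrays were all below the sham arrays, while 1 of the 3-day arrays lay inside the sham range. The differences were -0.38 ± 0.14 at 3 days (adjusted p = 0.210) and -0.68 ± 0.14 at 10 days (adjusted p = 0.0595). Between the days it differed by -0.31 (adjusted p = 0.454). With the lymphocyte covariate the differences from sham were -0.11 and -0.24, and neither passed.

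The Galnt family, which starts mucin-type O-glycans, had 18 genes on the array and 14 tested, with no calls. The widely expressed Galnt1 was 8.31, 8.35 and 8.39 in sham, 8.75, 8.59 and 8.59 at 3 days, and 8.41, 8.44 and 8.74 at 10 days. Every array after ligation lay above sham, with a 3-day difference of 0.29 ± 0.09 (adjusted p = 0.148). Galnt3, whose product glycosylates the hormone FGF23, was 8.30, 8.48 and 8.60 in sham and 8.08, 7.82 and 8.22 at 3 days. These groups did not overlap, and the difference of -0.42 ± 0.11 did not pass (adjusted p = 0.0925). Galnt6 was 7.90, 7.56 and 7.74 in sham and 7.26, 7.29 and 7.32 at 10 days. It differed by -0.44 ± 0.10 without overlap (adjusted p = 0.0740). Between 10 and 3 days Galnt9 differed by 0.24 (adjusted p = 0.328), Galnt11 by 0.25 (adjusted p = 0.413) and Galnt10 by -0.18 (adjusted p = 0.423).

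The beta-1,3-N-acetylglucosaminyltransferases lengthen lactosamine chains, and all 9 B3gnt genes were tested with none called. B3gnt5 encodes the enzyme that extends lactosylceramide into the lacto series of glycolipids, the step after the one B4galt5 and B4galt6 carry out. Its signal was 8.62, 8.97 and 8.75 in sham, 9.28, 9.37 and 9.77 at 3 days, and 9.55, 9.38 and 9.92 at 10 days. All arrays after ligation were above all sham arrays. The differences of 0.70 ± 0.17 (adjusted p = 0.0590) and 0.84 ± 0.17 (adjusted p = 0.0558) lay just outside the threshold. With the lymphocyte covariate they were -0.07 and -0.41, and neither passed.

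B3gnt7, which lengthens keratan sulfate chains, measured 10.06, 9.81 and 9.90 in sham, 9.85, 9.42 and 9.27 at 3 days, and 9.15, 9.65 and 9.34 at 10 days. The 10-day arrays were below sham and the 3-day arrays overlapped it. The differences were -0.42 at 3 days (adjusted p = 0.244) and -0.55 ± 0.16 at 10 days (adjusted p = 0.136). With the lymphocyte covariate the 10-day value was 0.39, which did not pass. B3gnt6, the core 3 O-glycan synthase, was dim, at 4.49 to 4.68 in sham and 4.21 to 4.44 at 10 days, and differed by -0.27 ± 0.08 (adjusted p = 0.119). Between the days B3gnt4 differed by 0.24 (adjusted p = 0.364) and B3gnt2, a polylactosamine synthase, by 0.20 (adjusted p = 0.440).

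Of the galactosyltransferases other than B4galt5 and B4galt6, none was called. B4galt1, the main galactosyltransferase of N-glycan antennae, was 8.96, 8.73 and 8.96 in sham and 9.04, 9.18 and 9.10 at 3 days. The groups did not overlap, and the difference was 0.22 ± 0.08 (adjusted p = 0.216). At 10 days against 3 days it differed by -0.24 without overlap (adjusted p = 0.332). Of the 5 B3galt genes 3 were tested. B3galt6, which builds the linker that attaches glycosaminoglycans to proteins, differed by -0.18 at 3 days (adjusted p = 0.585) and -0.40 at 10 days (adjusted p = 0.180), and between the days by -0.22 (adjusted p = 0.565).

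**Figure D5:**
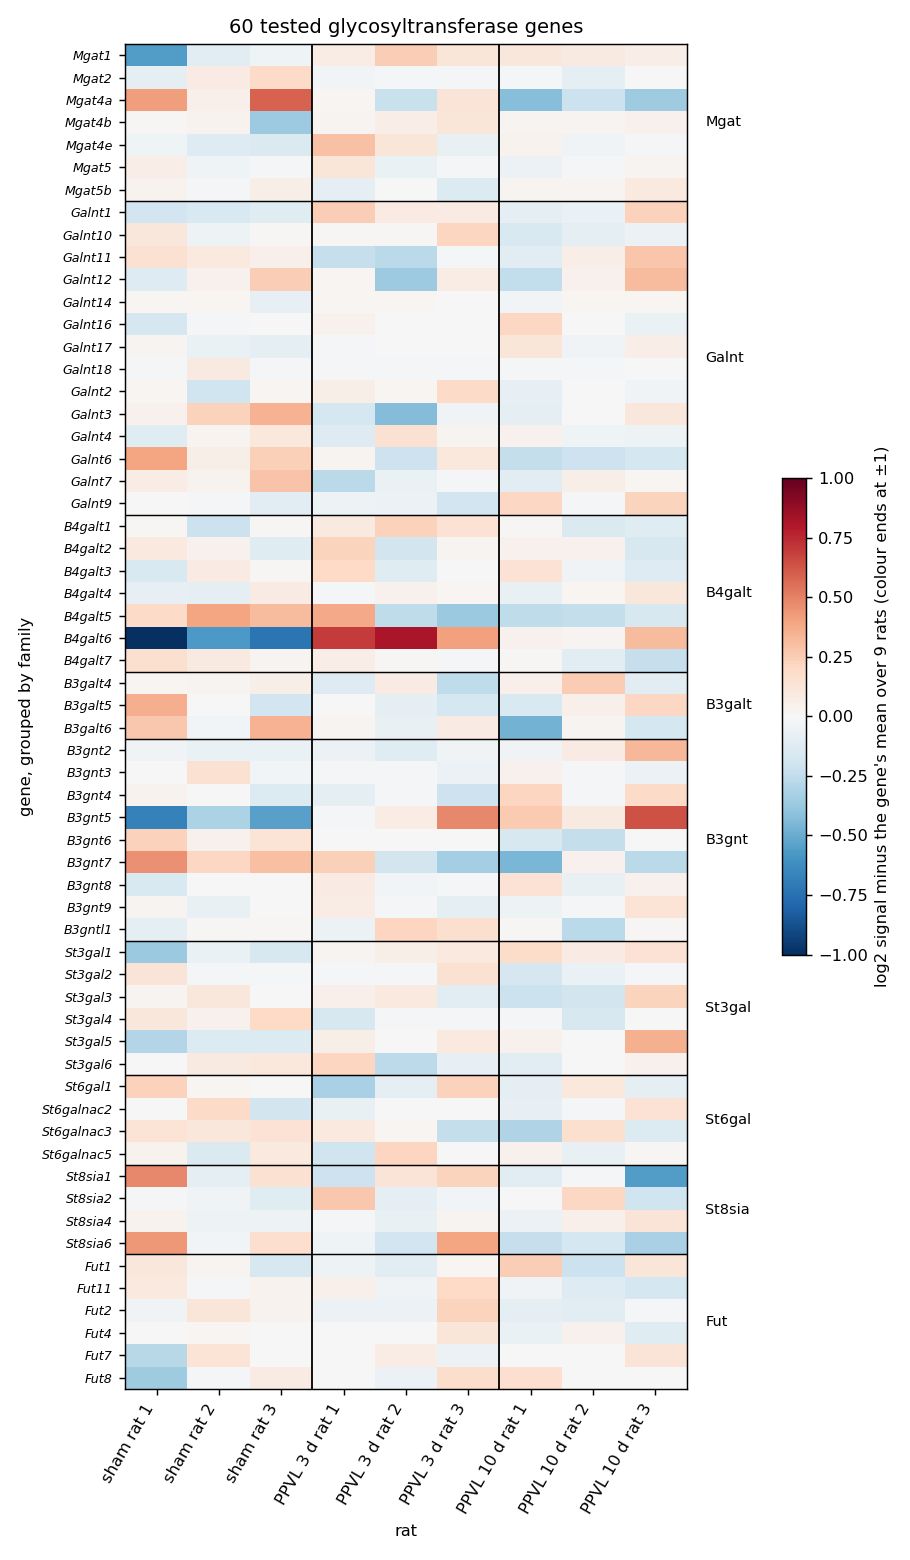
Log2 signal of each tested glycosyltransferase gene (rows, grouped by family) on each of the 9 arrays (columns, by group), shown relative to the gene's mean over the arrays. B4galt6 is lowest in the 3 sham arrays and highest at 3 days, and most other genes stay near their own mean.

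Among the sialyltransferases, the 6 St3gal genes were all tested with no calls. St3gal1, which sialylates core 1 O-glycans, was 9.96, 10.27 and 10.17 in sham, 10.36, 10.39 and 10.43 at 3 days, and 10.51, 10.41 and 10.48 at 10 days. All 6 arrays after ligation lay above sham, with differences of 0.26 ± 0.08 (adjusted p = 0.129) and 0.33 ± 0.08 (adjusted p = 0.0825). With the lymphocyte covariate these were -0.03 and -0.14, and neither passed. St3gal5, which makes the ganglioside GM3 from lactosylceramide, was 7.60, 7.75 and 7.75 in sham, 7.95, 7.89 and 7.98 at 3 days, and 7.93, 7.89 and 8.24 at 10 days. It too lay above sham on every array, with differences of 0.24 (adjusted p = 0.251) and 0.32 ± 0.10 (adjusted p = 0.139). The 10-day value with the lymphocyte covariate was -0.13, which did not pass. St3gal2 differed by -0.13 between the days (adjusted p = 0.558).

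St6gal1, the enzyme that places alpha-2,6-linked sialic acid on N-glycans and so makes the ligand of the B cell siglec CD22, was followed whatever its values. It measured 8.80, 8.59 and 8.57 in sham, 8.24, 8.47 and 8.80 at 3 days, and 8.48, 8.68 and 8.48 at 10 days. The groups overlapped, and the difference from sham was -0.15 at 3 days (adjusted p = 0.662) and -0.11 at 10 days (adjusted p = 0.739). Between the days it was 0.04 (adjusted p = 0.928). St6galnac3 differed by -0.17 at 3 days (adjusted p = 0.575) and -0.22 at 10 days (adjusted p = 0.397), and between the days by -0.05 (adjusted p = 0.894). Of the St8sia genes, which add sialic acid to sialic acid, 4 of 6 were tested. St8sia6 differed by -0.43 at 10 days (adjusted p = 0.205) and by -0.29 between the days (adjusted p = 0.512), and St8sia2 by 0.11 at 3 days (adjusted p = 0.742). St8sia4, a polysialyltransferase, lay at 10.5 to 10.7 on all 9 arrays.

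Of the 7 fucosyltransferase genes 6 were tested, and none was called. Fut8, which adds the core fucose of N-glycans, was 6.26, 6.60 and 6.70 in sham and 6.62, 6.56 and 6.80 at 3 days. The groups overlapped, with a difference of 0.14 (adjusted p = 0.641). Fut11 differed by -0.15 at 10 days (adjusted p = 0.361) and by -0.19 between the days (adjusted p = 0.404). Fut4 and Fut7 make the Lewis X epitopes of selectin ligands, and they lay at 5.38 to 5.62 and 5.42 to 5.84 over the 9 arrays, with overlapping groups.

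The 15 genes that were too dim to test (B3galt1, B3galt2, Fut9, Galnt5, Galnt13, Galntl5, Galntl6, Mgat3, Mgat4c, Mgat4d, Mgat4e-like, St6gal2, St6galnac1, St8sia3 and St8sia5) had means between 3.00 and 4.14. Their group means differed by 0.19 at most, and 1 of them lay outside the sham range on all 3-day arrays and 0 on all 10-day arrays. The share of all untested genes that did so was not counted, so these counts say nothing particular about the family. No tested member had a group mean below the limit, so none was tested through 1 bright group alone.

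The rest of the glycosylation pathway was read from 9 further lists, of whose 106 genes 95 were tested. These lists also held genes outside the pathway, namely galectins and sialic acid binding and selectin ligand proteins. Each list is called by its main content and may hold other genes. Examples are B3galnt2 among the glycolipid enzymes, Tmem165 among the transporters, Lgals3bp among the galectins and Chst1 and Chst2 among the O-glycan genes. At 3 days 4 of the 95 rose and 1 fell (5.26% called, against 2.86% of all genes), at 10 days 1 rose (1.05%, against 0.735%), and between the days 0 passed (limma, against 0.0714%). The 10-day call was Lgals3, a galectin gene, and the 3-day calls included Lgals3 and Cd44, which are outside the pathway. Unadjusted p was under 0.05 for 25 of the 95 at 3 days (26.3%, against 15.5%), 22 at 10 days (23.2%, against 16.2%) and 13 between the days (13.7%, against 11.3%). Lgals3, which encodes the lectin galectin-3, rose by 0.94 at 3 days (adjusted p = 0.00245) and by 0.55 at 10 days (adjusted p = 0.0491). It was the 1 gene called of 7 tested on the galectin list. Its 3-day call held in all 9 fits that left out 1 array and its 10-day call in 1 of 9 (adjusted p up to 0.169). B3galnt1, the globoside synthase, rose by 0.73 ± 0.15 at 3 days (adjusted p = 0.0340) and stood at 0.64 at 10 days (adjusted p = 0.0759). It was the 1 gene called of 10 tested on the glycolipid enzyme list. Its call held in 2 of the 9 fits that left out 1 array (adjusted p up to 0.106). Ugcg, which makes the glucosylceramide that B4galt5 and B4galt6 act on, differed by 0.04 and 0.01.

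Neu1, the lysosomal sialidase, rose by 0.56 at 3 days (adjusted p = 0.0410), 1 of 4 sialidases, and stood at 0.61 at 10 days (adjusted p = 0.0566). Cd44, the hyaluronan receptor, rose by 0.44 (adjusted p = 0.0163) at 3 days and stood at 0.30 at 10 days (adjusted p = 0.0998), 1 of 12 sialic acid binding and selectin ligand genes. Gfpt1, the rate-limiting enzyme of hexosamine synthesis, differed in the other direction and fell by 0.44 (adjusted p = 0.0427) at 3 days and stood at -0.26 at 10 days (adjusted p = 0.225), 1 of 24 genes of sugar nucleotide synthesis. With each array left out in turn, the 3-day call held in 2 of 9 fits for Neu1 (adjusted p up to 0.130), 7 for Cd44 (up to 0.0558) and 3 for Gfpt1 (up to 0.135). On the sugar nucleotide transporter list (12 tested) and the Golgi mannosidase and GlcNAc-1-phosphate list (8 tested) no gene was called in any comparison. The same held for the core O-glycan and I-branching list (6 tested) and the Golgi tethering list (12 tested). At 10 days the gene with the smallest p on the glycolipid enzyme list was B4galnt1, the GM2 synthase, at -0.36 (adjusted p = 0.0713).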

How the data were processed

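The deposited values are log2 signals that the authors made with RMA and Transcriptome Analysis Console, per the submitters' processing notes. Versions and genome build are not given in the sources used here. Of 36685 probesets the platform annotation gave 18511 a single symbol, 575 several and 17599 none. Each gene was represented by its brightest probeset, which for every member was its 1 named probeset, and genes below the 30th percentile of all probesets (4.16) were not tested.

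The 9 arrays were modelled together in R 4.3.3 (limma 3.58.1), which left 6 residual degrees of freedom and added 3.59 prior ones, and 2-sided moderated tests were adjusted (Benjamini-Hochberg) over all 14014 genes. The fit was tested on simulated data. The labels name separate rats but no batch. The number of arrays limits the precision, and the median standard error was 0.086 over all genes and 0.094 over the members. Named were the members called, the 8 with the smallest p per comparison, the smallest of each family with at least 2 tested genes, and B4galt5 and St6gal1. From the 9 further lists the called genes and the smallest p of a list could be named. St3gal4, St8sia4, Fut4, Fut7 and Ugcg were chosen after their values were seen. The members and lists were chosen with earlier results of these data known. Alternatives were other filters, normalization, variance options, array weights, a replicate block, marker score covariates, a threshold of 0.1 and leaving out each rat.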

Additional observations from a re-analysis of the deposited data

Results flagged for a closer look

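Galnt9, 1 of the transferases that start O-glycans, was singled out because its arrays lay on opposite sides of the sham mean (5.52) at the 2 days. Every 3-day array was below that mean, by -0.06 on average, and every 10-day array was above it, by 0.18 on average. The arrays read 5.56, 5.55 and 5.45 in sham, 5.51, 5.50 and 5.37 at 3 days, and 5.76, 5.55 and 5.78 at 10 days. The difference between 10 and 3 days was 0.24, and its limma test did not pass (adjusted p = 0.328). At each day the arrays overlapped those of sham. The gene was picked by these same values, and the share of all genes that met the rule was not counted.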

How the results depend on the processing

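Other settings changed which glycosyltransferase genes passed. At 3 days the count of 1 became 2 with a 50th percentile filter, array weights, robust moderation with an intensity trend, quantile normalization or a hepatocyte score covariate, 3 at an adjusted p under 0.1, and 0 with the lymphocyte covariate. At 10 days the count of 1 became 0 with no filter, the replicate block, the hepatocyte covariate or the lymphocyte covariate. It became 2 with quantile normalization or only the groups compared in the fit, 3 with the 50th percentile filter or the intensity trend, and 5 at 0.1. Leaving out 1 rat gave 1 to 2 at 3 days and 0 to 2 at 10 days. Between the days the count was 0 in every setting run. Over all genes the 401 calls at 3 days were 264 with the replicate block, 231 with the hepatocyte covariate, 134 with only the groups compared, 709 at 0.1, 0 with the lymphocyte covariate and 190 to 327 without 1 rat. The 103 calls at 10 days were 0 with no filter, the block or the lymphocyte covariate, 5 with the hepatocyte covariate, 61 with only the groups compared, 170 to 197 with the 50th percentile filter, quantile normalization, the intensity trend or array weights, 444 at 0.1 and 0 to 140 without 1 rat. The 10 calls between the days were 0 with the block or the lymphocyte covariate, 3 with only the groups compared, 21 with the hepatocyte covariate and 0 to 18 without 1 rat. The labels do not say whether the replicate numbers pair the rats. Same-numbered arrays had deviations correlated at -0.10 to 0.08, and 3 of 18 arrays and other groups matched best by number. With 3 arrays per group these values show no strong pairing but cannot exclude it.

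Of the 70 differences named by the rule, 53 kept their sign in every setting. With the lymphocyte covariate the sign reversed for B3galt6 (0.25 at 3 days, 0.30 at 10 days, 0.053 between the days), St6galnac3 (0.29, 0.52 and 0.23), B3gnt5 (-0.070 at 3 days, -0.41 at 10 days), St3gal1 (-0.026 and -0.14), Fut8 (-0.25 at 3 days), and at 10 days B3gnt7 (0.39), Chst2 (0.24) and St3gal5 (-0.13). Leaving out 1 rat gave -0.28 to 0.10 for B4galt5, -0.090 to 0.19 for St6gal1 and -0.18 to 0.052 for St6galnac3 between the days, and -0.0011 to 0.18 for St8sia2 at 3 days. In the fit with the lymphocyte covariate 0 genes were called in any comparison, so none of its reversed values passed. The T and natural killer cell scores do not overlap between sham and the 10-day arrays. The cause of the changes of sign was not tested.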
